A study of Mus musculus with 2 samples.

Results

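Dermal adipocytes, the lipid-storing cells that lie below the hair follicles of mouse skin, were chosen in 2 sections by the transcripts inside each cell outline. A cell with at least 20 gene transcripts was taken as an adipocyte when Car3 made up at least 10% of its total, when Retn, Pck1, Aqp7 and Nnat together gave at least 2 transcripts, and when 5 muscle genes (Ttn, Pvalb, Actn3, Pygm and Des) made up under 30% of it. This rule took 3684 of 59588 cells, of which 1302 were in the mock section and 2382 in the SspA+HDM section. The rule used measured values, so the levels of these 10 genes describe the choice and are no result.

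The sections came from whole dorsal skin of C57BL/6 mice that had been shaved and depilated, and both groups share this preparation. The mock group received PBS on the skin surface (epicutaneous PBS) and the other group received epicutaneous SspA+HDM, and the tissue was taken on day 7. The series held 1 sample per treatment, each a slice 5 µm thick from a paraffin block measured with Xenium In Situ, an imaging assay that decodes single RNA molecules in place. The labels used here give neither the age of the mice nor how many animals a section represents.

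Each section contained 2 separate strips of skin between 6.90 and 7.69 mm long, numbered here by their position on the slide. Whether both strips are of 1 animal is not stated in the labels, so they are given side by side as parts of a section and not as replicates. With 1 sample per treatment no test of the treatment could be made and no p-value is given. Intervals are exact 95% intervals of the counts and cover counting error only. The mock section held 2461475 gene transcripts of quality 20 or higher and the SspA+HDM section 8124205, with a median of 103 and 121 per segmented cell, over 379 genes. No cell identifier occurred in both sections.

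Adipocytes take up fatty acids through CD36, store them as triglyceride, release them with lipases such as MGLL, and export the glycerol through the channel aquaporin 7. They also secrete proteins into tissue and blood, among them resistin (Retn), haptoglobin (Hp) and complement C3. In skin they form a layer between the dermis and the panniculus carnosus, the thin muscle sheet beneath, and this layer is known to expand and to take part in defence when bacteria enter the skin.

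The label was checked against markers that the rule did not use. Of the 14 fat cell markers listed, 5 were among the genes analysed here, and Cd36 was the 1 of them that the rule left unused. Cd36 stood at 59681 CPM (counts scaled to the total of gene transcripts of the same cells) in mock adipocytes and 44779 CPM in those of SspA+HDM, which was 8.23 and 9.41 times its level in all other cells. Of the 12 genes highest in adipocytes relative to other cells, Retn, Pck1, Nnat and Aqp7 were genes of the rule, so their place was set by the choice of cells. The others were Hp, Timp4, Cd36, Cavin2, C3, Selenbp1, Ppp1r1a and Cav1. Cavin2 and Cav1 build caveolae, the membrane pits that are dense in fat cells, and Timp4 encodes a metalloproteinase inhibitor known from fat tissue. Car3 also marks skeletal muscle, which is why the rule has a muscle limit. Of 2601 mock cells with Car3 at or above 10%, 1063 were left out for their muscle genes, and of 4642 such cells in SspA+HDM 1745 were.

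The genes whose share per cell ran most closely with that of Car3, over all 15306 mock and 44282 SspA+HDM cells, were ranked by the lower of their Spearman coefficients in the 2 sections. Hp came first with 0.55 in mock and 0.59 in SspA+HDM. Retn gave 0.58 and 0.54 and Cd36 0.54 and 0.53. The other 7 genes, Pvalb, Ttn, Pygm, Actn3, Trdn, Pgam2 and Myoz1, are genes of muscle, and muscle cell outlines held 52.4% of all Car3 transcripts of the mock section and 50.7% of those of SspA+HDM. The cells of a section share its library and its depth, so these coefficients are descriptions.

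Near the Car3 threshold the change was gradual. In the mock section 110 adipocytes had Car3 between 10% and 12% and 108 cells between 8% and 10% met every other condition. In SspA+HDM these numbers were 391 and 327. Just inside the threshold Hp stood at 23064 CPM in mock and 63634 CPM in SspA+HDM, and just outside it at 20133 and 55233 CPM. Within each section the cells just outside were close in Hp to those just inside.

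**Figure D1:**
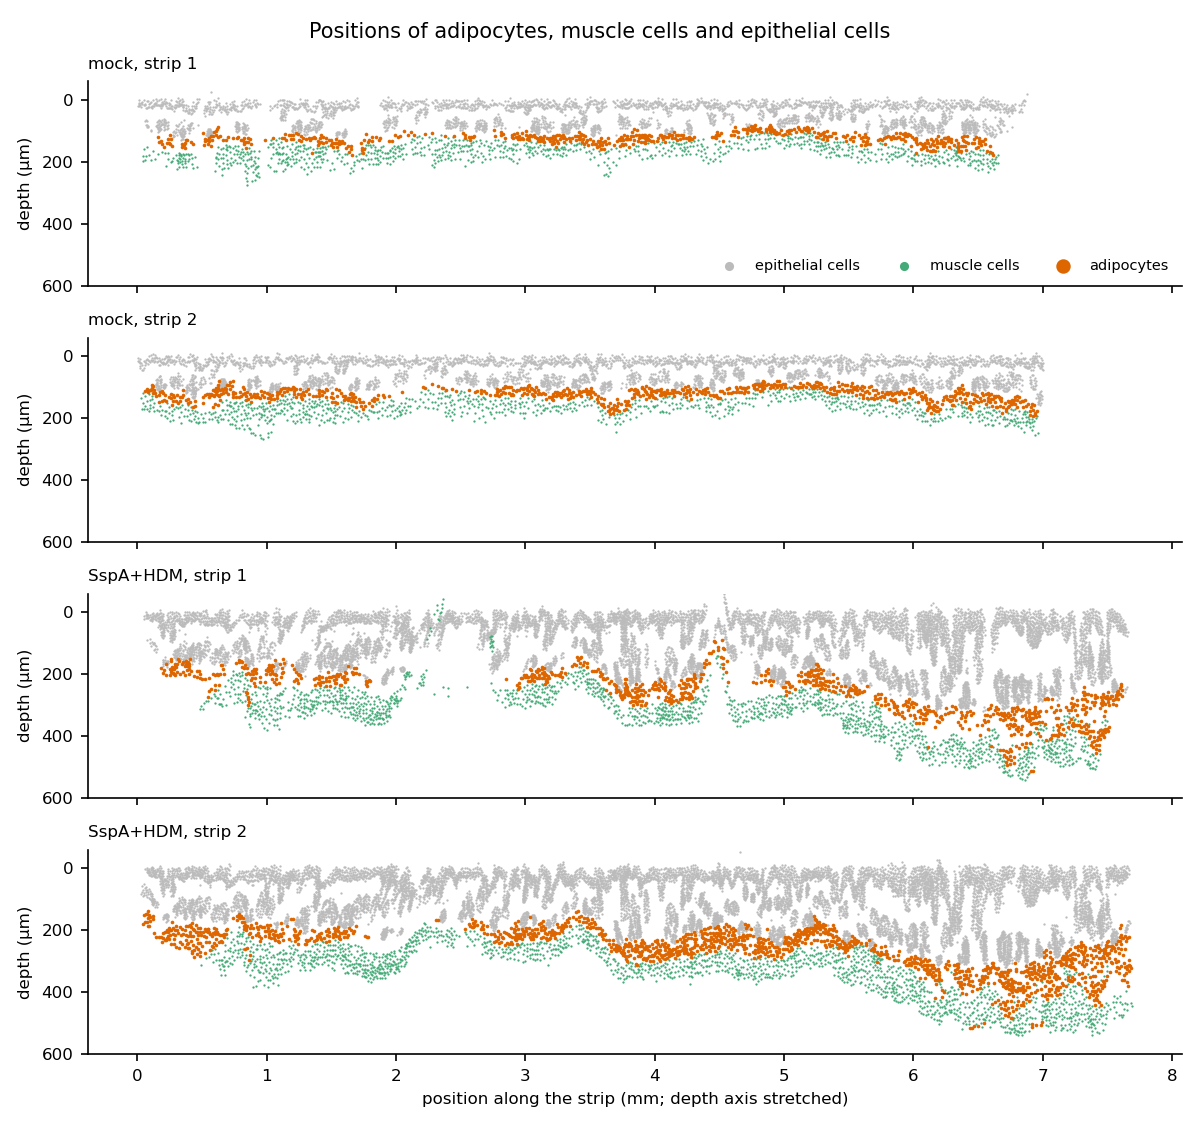
Positions of adipocytes (orange), epithelial cells (grey) and muscle cells (green) in the 4 strips, with position along the strip in mm on the horizontal axis and depth below the outermost epithelial cells in µm on the vertical axis, which is stretched. Adipocytes form a thin band between follicles and muscle in mock and a deeper, thicker band in SspA+HDM, with a break near 2 mm in the SspA+HDM strips.

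Adipocytes lay in a band between the follicles and the muscle in every strip. All 557 and 745 adipocytes of the mock strips were shallower than the median muscle cell near them. In SspA+HDM 870 of the 919 adipocytes of strip 1 and 1383 of the 1463 of strip 2 had at least 3 muscle cells within 100 µm along the strip, and of these 862 and 1372 were shallower. Their nearest fellow adipocyte was at a median of 12.7 µm in mock and 12.4 µm in SspA+HDM, a similar spacing. The band itself lay deeper after SspA+HDM, with a median depth of 123 µm (strip 1) and 122 µm (strip 2) in mock and of 253 µm in both strips of SspA+HDM. The whole tissue measured 222 µm and 226 µm in depth in mock against 333 µm and 340 µm in SspA+HDM (median over 200-µm stretches).

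The band was thicker in SspA+HDM. Thickness was taken as the distance between the 10th and 90th percentile of adipocyte depth in each 200-µm stretch. Its median was 21.1 µm in strip 1 and 29.8 µm in strip 2 of mock, against 52.7 µm and 54.9 µm in strips 1 and 2 of SspA+HDM. Of 66 stretches of SspA+HDM with enough adipocytes, 33 were thicker than the thickest of 63 mock stretches (54.7 µm), and the thickest reached 165 µm.

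Adipocytes made up a smaller share of cells in SspA+HDM while more of them lay along each millimetre. The share was 7.78% and 9.15% in the mock strips and 4.51% and 6.12% in the SspA+HDM strips, and 8.51% (8.07 to 8.96) against 5.38% (5.17 to 5.59) over the sections, a ratio of 0.632. Per mm of strip there were 80.8 and 106 adipocytes in mock and 120 and 190 in SspA+HDM, a ratio of 1.66 over the sections (93.6 against 155). All cells per mm had a ratio of 2.62, so the adipocyte share was lower although their number was higher. The strips of the 2 sections overlapped in neither quantity.

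The count per mm depended on the Car3 threshold more than on any other setting. With Car3 at 20% or more the ratio per mm was 0.998, and with 5% or more it was 1.86. Cells with Car3 under 10% that met every other condition numbered 348 in mock and 1222 in SspA+HDM, beside 1302 and 2382 adipocytes. The rule left these cells out of both the share and the number per mm. The median Car3 share of an adipocyte was 19.1% in mock and 16.4% in SspA+HDM, so a threshold of 20% falls near the middle of the mock cells and above most of the others. Choosing cells by Retn at 2% or more of the total, with the same muscle limit and without regard to Car3, gave 1394 and 2314 cells and a ratio per mm of 1.5. Retn is itself a gene of the rule, so this choice is not independent of it. Transcripts of the whole section per mm, in every cell class and outside outlines, gave a ratio of 1.53 for Car3 and 1.47 for Retn, which are genes of the rule. The ratio was 1.72 for Cd36, of which 20.1% in mock and 30.8% in SspA+HDM lay in epithelial cells.

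**Figure D2:**
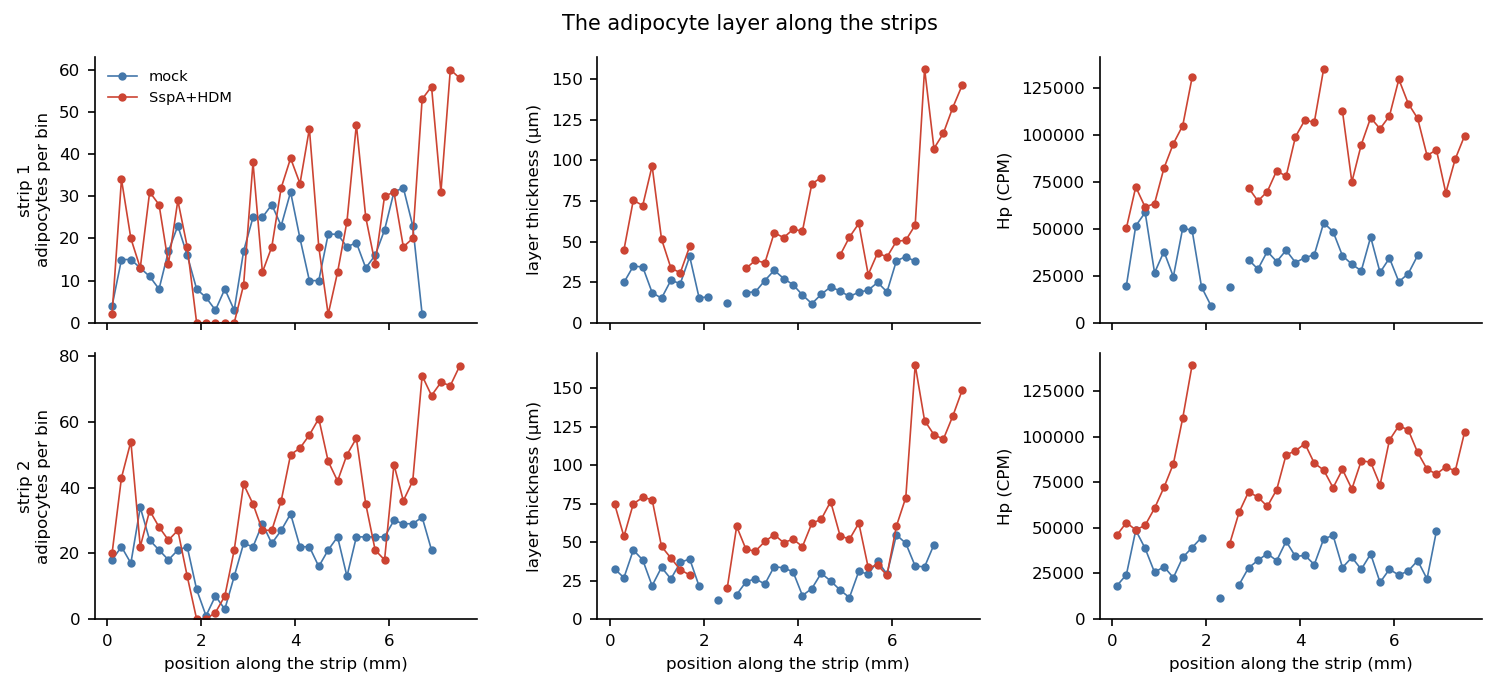
Adipocytes per 200-µm stretch (left), thickness of the adipocyte band in µm (middle) and Hp in CPM of adipocytes (right) along strip 1 (top) and strip 2 (bottom), with mock in blue and SspA+HDM in red, and no point where a stretch held too few adipocytes. All 4 strips have few adipocytes near 2 mm, and 59 of 66 Hp values of SspA+HDM lie above the highest of mock.

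The layer was uneven along the strips. Between 1.8 and 2.8 mm the mock strips held 28 and 33 adipocytes, from 1 to 13 per stretch, and the SspA+HDM strips held 0 and 30. Stretches with no adipocyte at all numbered 0 and 0 in mock and 5 and 2 in SspA+HDM. Of the 1745 cells in that stretch of strip 1 of SspA+HDM none met the rule. Towards the far end, beyond 6.4 mm, the SspA+HDM strips reached 60 and 77 adipocytes per stretch, the highest numbers of each strip. They had 6 stretches each there, up to 7.6 mm. The mock strips had 2 and 3 stretches there, up to 6.8 and 7 mm, and reached 23 and 31, so these maxima cover unlike positions.

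The outlines of adipocytes differed little in size and content between the sections. Their median area was 204 and 213 µm² in mock against 198 and 188 µm² after SspA+HDM, slightly lower in both strips. These are outlines in a slice 5 µm thick, so their area does not measure the size of whole fat cells. Whether a fat cell was split over several outlines was not tested. A median outline held 150 and 161 transcripts in mock and 145 and 173 in SspA+HDM, and these ranges overlap. Transcripts over a nucleus were 18.7% of all adipocyte transcripts in mock and 20.7% in SspA+HDM, against 26.6% and 32.3% in all other cells.

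The neighbours of adipocytes differed between the sections. A muscle cell lay within 30 µm of 63.4% and 57.3% of adipocytes in the mock strips and of 28.3% and 29.5% in the SspA+HDM strips. A macrophage, called by Ms4a6c, Ms4a7, Mpeg1 and Clec4a3 at 10% or more of its transcripts, lay within 30 µm of 7.00% and 3.36% of mock adipocytes and of 25.2% and 19.4% of those in SspA+HDM. The strips of the 2 sections did not overlap for either neighbour. The sections held 131 macrophages among 15306 cells in mock and 767 among 44282 in SspA+HDM. The median distance from an adipocyte to the nearest macrophage was 77.4 µm in mock and 50.6 µm in SspA+HDM. Of Pi16 fibroblasts, 17.6% and 13.4% in the mock strips and 30.5% and 16.1% in the SspA+HDM strips had a macrophage within 30 µm, and these ranges overlap. Within 20 µm the shares of fibroblasts were 8.97% and 6.76% in mock and 19.2% and 11.6% in SspA+HDM, which do not overlap. Over the sections the share of fibroblasts within 30 µm was 15.4% in mock and 22.3% in SspA+HDM, so a higher share was not particular to adipocytes. The nearest epithelial cell was at a median of 34.7 µm (strip 1) and 35.6 µm (strip 2) in mock against 39.1 µm and 43.96 µm in SspA+HDM, a smaller difference.

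Transcripts of adipocytes were then compared gene by gene between the sections, over the 166 genes with at least 100 transcripts in the adipocytes of a section that the rule had not used. Of these, 29 genes (17.5%) had a ratio of SspA+HDM to mock of 2 or more and 9 genes (5.42%) were lower by 2-fold or more. For all 29 both SspA+HDM strips were above both mock strips, and for all 9 both were below. The genes were picked by their ratio over these same strips, so this order follows largely from the choice and is no replication. The median log2 ratio of SspA+HDM to mock was 0.01. Among the 29 were genes that stood far higher in other cells: 18 were at under 0.25 of the level of another cell class in the same section, which leaves 11. Of the 9 lower genes 8 carried no such mark.

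**Figure D3:**
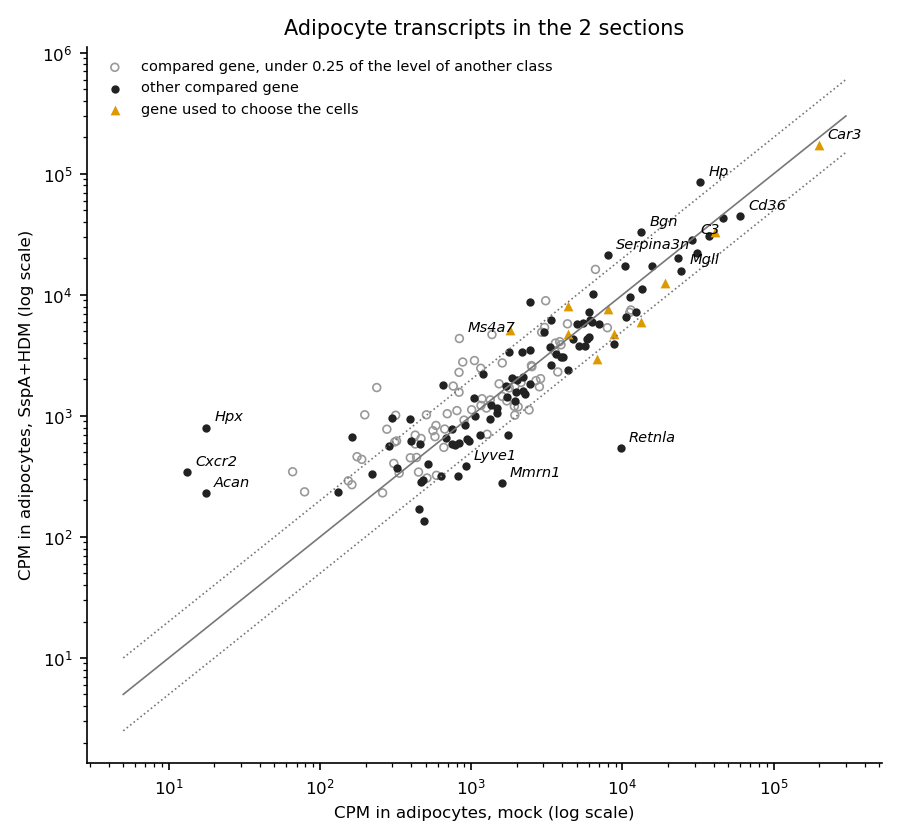
Level of each gene in adipocytes of mock (horizontal) and SspA+HDM (vertical), in CPM on log axes, for the 166 compared genes and the genes of the rule (triangles), with open circles for genes at under 0.25 of the level of another cell class. The solid line marks equal levels and the dotted lines a 2-fold difference, and Hpx, Hp and Serpina3n lie above while Retnla lies farthest below.

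The list of secreted immune and acute phase genes, the latter being those of the blood and tissue response to injury and infection, held both the highest ratio of the 166 genes (Hpx) and the lowest (Retnla). Of 6 genes listed for secreted immune and acute phase proteins known from fat, 3 were 2-fold higher or more in SspA+HDM (Hp, Hpx and Serpina3n), 1 was lower by 2-fold or more (Retnla) and the others, C3 among them, were neither. Over all 166 genes 17.5% were higher and 5.42% lower by 2-fold or more. The median log2 ratio of the 6 genes was 1.03, against 0.01 over all 166 genes. The list was chosen with earlier results of these data known, so these values describe it and are no test of enrichment.

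Hp encodes haptoglobin, which binds free haemoglobin. It stood at 34472 and 31583 CPM in the adipocytes of the mock strips and at 91557 and 81152 CPM in those of the SspA+HDM strips. Both SspA+HDM strips were above both mock strips, with a ratio of 2.59 (2.53 to 2.66) over the sections. Per adipocyte this was 5.73 transcripts in mock and 15.6 in SspA+HDM. Of all Hp transcripts, 73.3% in mock and 65.3% in SspA+HDM lay in adipocytes, and Hp per mm of section was 5.05 times higher in SspA+HDM. The ratio of Hp in all other cells was 2.14, so the difference was not confined to adipocyte outlines. The make-up of these other cells differed between the sections. Pi16 fibroblasts numbered 1673 in mock and 470 in SspA+HDM, and cells in no called class 3712 and 16500. Here and below, a ratio in all other cells can therefore reflect make-up as well as level. Of 66 stretches of SspA+HDM, 59 were above the highest of the 63 mock stretches (58792 CPM) and all 66 were above the mock median.

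With every cell thinned to 50 transcripts, at least 1 Hp transcript was found in 74.2% of 1253 mock adipocytes and in 94.4% of 2299 of SspA+HDM. Cells with fewer than 50 transcripts, 49 and 83, were left out of this count. Epithelial cells, which should lack fat cell Hp, had it in 0.693% and 1.7%. Before thinning, the shares were 93.2% and 99.2%, at a median of 156 and 161 transcripts per adipocyte.

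Hpx encodes hemopexin, which binds free haem. It gave 4 transcripts in all mock adipocytes and 350 in those of SspA+HDM, or 10.8 and 22.3 CPM in the mock strips and 869 and 763 CPM in the SspA+HDM strips. The ratio was 45.6 with a wide interval (17.6 to 168), since the mock count is about that of the highest control feature in these cells, which gave 4 in mock and 6 in SspA+HDM. On the log2 scale the ratio was 5.51, and it was 6.21 without strip 2 of mock and 2.91 when transcripts over the nucleus alone were counted. An Hpx transcript was found in 10.2% of SspA+HDM adipocytes (9.05 to 11.5) and in 0.307% of mock ones (0.0838 to 0.785). In all other cells the ratio of Hpx was 1.55. In mock, 55.0% of the section's 60 Hpx transcripts lay in epithelial cells and 6.67% in adipocytes, and in SspA+HDM 14.5% of 668 lay in epithelial cells and 52.4% in adipocytes.

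Serpina3n encodes a secreted inhibitor of serine proteases. Its level was 7440 and 8335 CPM in the mock strips and 20805 and 21564 CPM in the SspA+HDM strips, which do not overlap. The ratio was 2.67 (2.54 to 2.81), whereas it was 1.18 in all other cells. In mock it was lower in adipocytes than in Pi16 fibroblasts (13503 CPM) and macrophages (10127 CPM), and in SspA+HDM it was higher than in both (10453 and 14047 CPM). The share of thinned adipocytes with a Serpina3n transcript was 31.9% in mock and 59.5% in SspA+HDM, against 7.71% and 5.98% of epithelial cells.

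C3, the central complement protein, stood at 31033 and 27349 CPM in the mock strips and 29771 and 27218 CPM in the SspA+HDM strips. These strips overlapped, and the ratio was 0.975 (0.946 to 1.004).

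Retnla encodes a secreted resistin-like protein known from fat tissue and from macrophages under type 2 cytokines. It stood at 9262 and 10018 CPM in the adipocytes of the mock strips and at 428 and 601 CPM in those of the SspA+HDM strips. It was 18.0-fold lower in SspA+HDM, and was also 8.93-fold lower in all other cells. In mock 43.9% of adipocytes had a Retnla transcript and the tenth of adipocytes with the most held 63.9% of it, whereas in SspA+HDM 5.00% had one. With cells thinned to 50 transcripts these shares were 26.3% and 2.44%, against 1.15% and 0.0839% in epithelial cells. Pi16 fibroblasts held more of it than adipocytes in each section, 27505 CPM in mock and 9905 CPM in SspA+HDM.

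**Figure D4:**
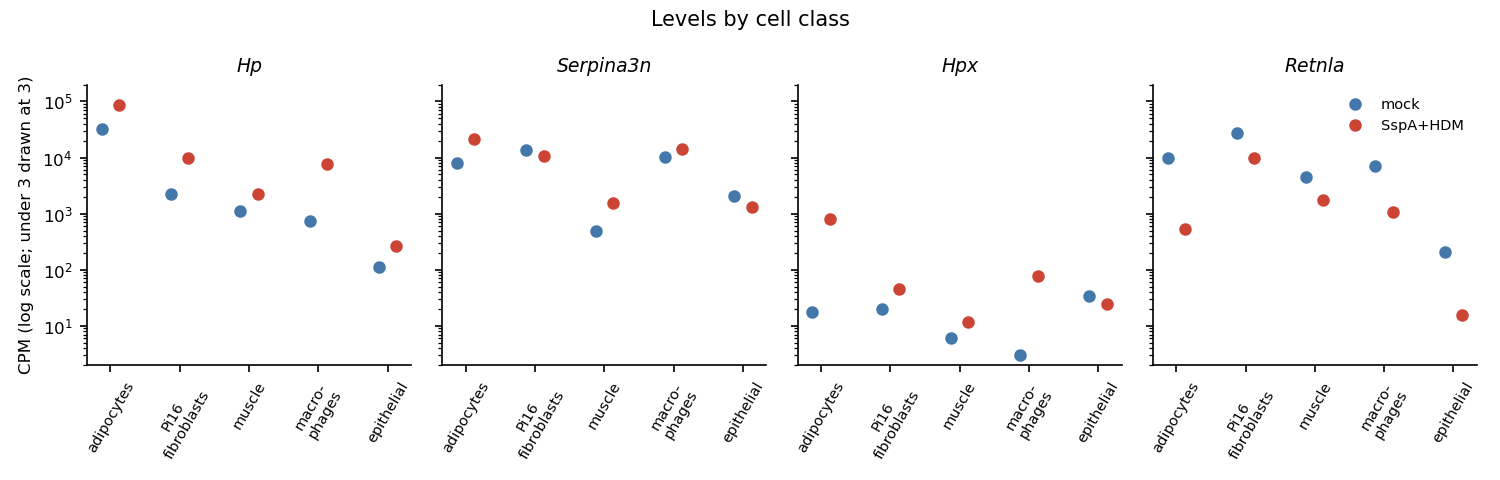
Level of Hp, Serpina3n, Hpx and Retnla, in CPM on a log axis, in adipocytes and 4 other cell classes of the mock (blue) and SspA+HDM (red) sections, with values under 3 CPM drawn at 3. Hp is highest in adipocytes in both sections, Hpx is high in adipocytes of SspA+HDM, and Retnla is lower in SspA+HDM in all 5 classes.

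The bases before the start sites of Hpx, Serpina3n and Retnla are shown because these genes, chosen after their values were seen, had the ratios farthest from 1 among the 6 genes of the secreted immune and acute phase list. Each is the 250 bases before the start in RefSeq's table for GRCm38.p6, read 5′ to 3′ on the gene's strand. They lie at chr7:105600117-105600366 on the minus strand for Hpx, at chr12:104406458-104406707 on the plus strand for Serpina3n and at chr16:48842359-48842608 on the plus strand for Retnla. Capitals mark matches on either strand to TTNNGNAA, the type of site bound by C/EBP factors, which act in fat cells and in the acute phase.
Hpx: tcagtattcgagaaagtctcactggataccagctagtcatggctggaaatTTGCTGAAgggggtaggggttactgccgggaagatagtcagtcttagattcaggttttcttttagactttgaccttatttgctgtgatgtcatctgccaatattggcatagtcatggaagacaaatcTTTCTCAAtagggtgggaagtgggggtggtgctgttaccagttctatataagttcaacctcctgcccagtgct
Serpina3n: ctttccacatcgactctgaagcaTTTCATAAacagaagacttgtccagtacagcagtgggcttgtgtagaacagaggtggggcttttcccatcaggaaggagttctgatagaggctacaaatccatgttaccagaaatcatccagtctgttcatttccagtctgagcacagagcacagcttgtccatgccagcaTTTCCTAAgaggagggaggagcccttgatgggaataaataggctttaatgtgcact
Retnla: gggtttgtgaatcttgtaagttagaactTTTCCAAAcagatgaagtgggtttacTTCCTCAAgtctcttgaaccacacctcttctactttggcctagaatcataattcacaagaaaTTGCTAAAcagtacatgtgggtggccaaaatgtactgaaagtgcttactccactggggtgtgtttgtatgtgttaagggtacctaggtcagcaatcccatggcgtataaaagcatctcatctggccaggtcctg
The Hpx and Serpina3n windows held 2 matches each and the Retnla window 3, none of them overlapping. Of 27025 windows of 250 bases before a start, 36.9% held at least 1 match. The letters TTCNNNGAA, the type of site bound by STAT factors, occurred in none of the 3 windows and in 7.18% of all. A match describes letters only, and the gene that was lower in SspA+HDM has them as well as the genes that were higher.

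No compared gene of the fat cell list passed 2-fold. In that list 7 of 44 genes were among those analysed, and 5 of them were used by the rule. The other 2, Cd36 and Mgll, had ratios below 1. Cd36 stood at 61418 and 58487 CPM in the mock strips and 46353 and 43922 CPM in the SspA+HDM strips, a ratio of 0.750 (0.734 to 0.767). Mgll stood at 24617 and 24279 CPM in mock and 15544 and 16030 CPM in SspA+HDM, a ratio of 0.650 (0.627 to 0.673). The strips of the 2 sections did not overlap for either gene, and the median of the 2 log2 ratios was -0.52. Other genes high in adipocytes had ratios of 0.627 for Cavin2, 0.664 for Selenbp1, 0.742 for Timp4, 0.752 for Ppp1r1a and 0.927 for Cav1. In all other cells Cd36 and Mgll had ratios of 0.657 and 0.741.

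**Figure D5:**
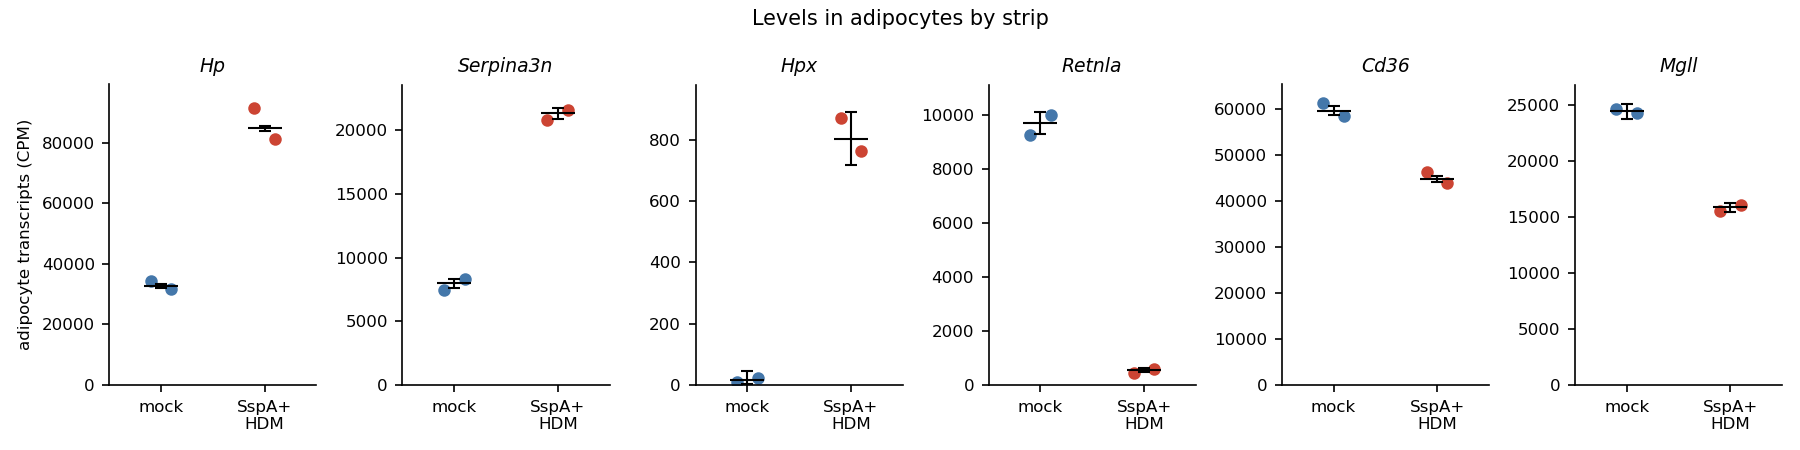
Level in adipocytes, in CPM, of 6 genes by section, with 1 point per strip, a bar at the level of the section and whiskers for its exact 95% counting interval. The points of mock and SspA+HDM do not overlap for any of the 6 genes, of which Hp, Serpina3n and Hpx are higher and Retnla, Cd36 and Mgll lower in SspA+HDM.

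The genes of the rule are given as a description. Car3, a carbonic anhydrase abundant in fat and muscle, stood at 198794 CPM in mock adipocytes and 172712 CPM in those of SspA+HDM. Resistin (Retn) stood at 41201 and 32945 CPM, and the glycerol channel Aqp7 at 4341 and 4740 CPM. Pck1, which makes the glycerol backbone of stored fat from smaller molecules, stood at 4350 and 8030 CPM. Nnat, a small membrane protein gene that is switched on during fat cell differentiation, stood at 1801 and 5143 CPM. Muscle genes of the rule were lower in SspA+HDM adipocytes, with ratios from 0.436 for Actn3 to 0.957 for Des.

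Of 5 compared genes of matrix and remodelling 1 was at least 2-fold higher, Bgn, the small proteoglycan biglycan, and none lower, beside 17.5% higher and 5.42% lower over all 166 genes. Bgn stood at 13144 and 13467 CPM in mock and 34241 and 32381 CPM in SspA+HDM, a ratio of 2.48, and it had a ratio of 1.88 in all other cells. Timp3, an inhibitor of metalloproteinases, had a ratio of 0.584, Dpt 0.815, Lum 1.10 and Aspn 1.59. Of 7 fibroblast genes Mfap4, a microfibril protein gene, was at least 2-fold higher (2443 against 8657 CPM) and Pcolce2 at least 2-fold lower (8735 against 3928 CPM). Mfap4 in all other cells had a ratio of 1.04. Pi16 and Mfap5 had ratios of 0.659 and 1.56.

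Acan and Wif1 were also among the 10 highest ratios. Acan, the large proteoglycan aggrecan, gave 4 transcripts in mock adipocytes and 101 in SspA+HDM, a ratio of 13.2 (4.98 to 49.2). Its log2 ratio of 3.72 was 4.42 without strip 2 of mock and 2.35 with no filter on quality. Wif1, a secreted Wnt inhibitor, stood at 163 and 666 CPM, which is below its level in other cells in both sections.

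Genes of other cell types were found inside adipocyte outlines, and their amounts differed between the sections. The largest sums among these lists were those of fibroblast genes, 85539 CPM in mock and 76318 CPM in SspA+HDM. Next came the 5 muscle genes that the rule limits, with 55911 and 33810 CPM. Macrophage genes summed to 4777 and 4976 CPM in the mock strips and to 15245 and 14376 CPM in the SspA+HDM strips, a ratio of 3.0. Of their 4 compared genes 3 were at least 2-fold higher (Ms4a7 5.22, Ms4a6c 3.42 and Mpeg1 2.73), beside 17.5% of all 166 genes, and Clec4a3 had a ratio of 1.71. The macrophage class itself was called by these 4 genes. Of the granulocyte genes, Csf3r (7.22) and Cxcr2 (3 against 149 transcripts, a ratio of 25.9 with an interval of 8.68 to 127) were higher, Il1r2 was 2.16-fold lower, and Mmp9 had a ratio of 0.781. The log2 ratio of Cxcr2, 4.69, was 3.98 without strip 2 and 5.52 without strip 1 of mock. The chemokine gene Ccl12 had a ratio of 5.24. Rac2, a signalling protein gene of white blood cells, was the 1 compared gene of the T cell list and had a ratio of 2.77.

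Epithelial genes were few in adipocyte outlines. They summed to 2556 and 2432 CPM in the mock strips and 3107 and 3484 CPM in the SspA+HDM strips. Of 5 epithelial genes Serpinb5 was at least 2-fold higher (43 against 191 transcripts), a share near the 17.5% over all 166 genes, and S100a14 had a ratio of 1.95, Trim29 1.16 and Krt79 1.12. Krt16, a keratin of injured epidermis, had a ratio of 5.16 in adipocyte outlines and of 19.96 in all other cells. Without strip 2 of mock Serpinb5 was no longer 2-fold higher, and without strip 2 of SspA+HDM the log2 ratio of Krt16 was 1.76 instead of 2.37.

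Vessel genes gave mixed values. Both compared lymphatic genes were at least 2-fold lower, beside 5.42% of all 166 genes, Mmrn1 by 5.73-fold (361 against 121 transcripts) and Lyve1 by 2.38-fold, and their sum was 2588 and 2840 CPM in mock and 824 and 686 CPM in SspA+HDM. The ratio of Mmrn1 in all other cells was 0.400. None of 4 blood vessel genes passed 2-fold (Kdr 0.722, Plvap 1.11, Vwf 1.2 and Aqp1 1.76), and none of 3 mural genes did (Myh11 0.774, Tagln 0.920 and Rgs5 1.33). Cpa3 of mast cells had a ratio of 0.991. Further genes of the 10 lowest ratios were Nap1l5 (3.61-fold lower), Kcna1 (2.59-fold), Gatm (2.51-fold) and Mamdc2 (1.99-fold). Without strip 2 of SspA+HDM, Gatm, Kcna1 and Lyve1 were lower by less than 2-fold.

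None of 3 compared interferon-linked genes passed 2-fold over the sections, with ratios of 1.12 for Psmb8, 1.17 for Rsad2 and 1.5 for Ifitm6. The value of Ifitm6 depended on the mock strip, with a log2 ratio of 1.03 without mock strip 2 and 0.344 without mock strip 1.

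The main differences were also read in adipocytes with 0 transcripts of 1 short list at a time, a choice made after the values were seen. Such cells still held other genes of white blood cells that differed between the sections. In the 896 mock and 850 SspA+HDM adipocytes with 0 macrophage-list transcripts, the ratio was 2.45 for Hp, 2.38 for Serpina3n and 2.39 for Bgn, Hpx gave 2 against 64 transcripts, and Retnla was 20.2-fold lower. Among these cells Csf3r gave 5 against 91 transcripts, Laptm5 had a ratio of 2.32 and Ctss one of 2.08. In the 229 and 749 adipocytes with 0 transcripts of Pi16, Igfbp6 and Pcolce2, the ratio was 2.79 for Hp and 4.07 for Serpina3n and Retnla was 22.6-fold lower. In the 192 and 854 adipocytes with 0 muscle transcripts, it was 2.57 for Hp and 2.31 for Serpina3n and Retnla was 37.4-fold lower. Over the genes, 17 were at least 2-fold higher and 5 lower without macrophage transcripts, of which 13 and 5 were among the 29 and 9.

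Within the SspA+HDM strips the adipocytes differed between the stretch left of the strip's midpoint and that right of it. Hp stood at 75289 and 66525 CPM on the left and 97481 and 86609 CPM on the right. Hpx stood at 219 and 117 CPM on the left and 1106 and 1004 CPM on the right, and Serpina3n at 14120 and 14268 CPM against 23240 and 24286 CPM. For these 3 genes both right stretches were above both left ones. Retnla ran the other way, with 1191 and 1079 CPM on the left and 150 and 422 CPM on the right.

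In mock neither Hp nor Serpina3n had both right stretches above both left ones. There Hp stood at 36612 and 30888 CPM on the left and 33316 and 32010 CPM on the right, and Serpina3n at 7439 and 8024 against 7441 and 8526 CPM. Hpx stood at 0 and 58.4 CPM against 16.6 and 0 CPM, and Retnla at 8177 and 12289 against 9849 and 8622 CPM. Over 200-µm stretches Retnla had Spearman coefficients with position along the strip of -0.24 and -0.33 in mock. In SspA+HDM they were -0.35 and -0.45, of the same sign. The right stretches of SspA+HDM also held more adipocytes per mm (160 and 258 against 79.7 and 122) and had their adipocytes deeper (296 and 281 µm against 203 and 212 µm). Those of mock held more adipocytes per mm as well (96 and 122 against 65.55 and 90.37), at a similar depth (122 and 122 µm against 125 and 121.9 µm). In SspA+HDM macrophages were 1.95% and 1.95% of cells on the left and 1.75% and 1.43% on the right. Macrophage-list transcripts in its adipocytes were 13804 and 12577 CPM on the left and 15770 and 15047 CPM on the right. The part of number, depth and macrophages in the order was not tested.

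Levels of these genes in adipocyte outlines also differed with position within the tissue. In SspA+HDM, Hp was 61963 CPM in the 692 adipocytes within 30 µm of a muscle cell, 93489 CPM in the 953 at 30 to 60 µm and 98318 CPM in the 737 farther away. Hpx was 330, 816 and 1300 CPM in the same order, and Retnla 946, 408 and 270 CPM. In mock, Hp was 29512 CPM within 30 µm of muscle and 37969 CPM at 30 to 60 µm, and Retnla 11250 and 7212 CPM. By distance to a macrophage, Hp in SspA+HDM was 94495 CPM within 30 µm, 93306 CPM at 30 to 60 µm and 73381 CPM beyond. At each distance from muscle the SspA+HDM adipocytes had more Hp and less Retnla than the mock ones. Across single adipocytes Hp had Spearman coefficients with the muscle genes of -0.28 (mock) and -0.24 (SspA+HDM). Those of Retnla were 0.13 (mock) and 0.12 (SspA+HDM). Muscle outlines contained 20.8% of mock Retnla and 42.5% of SspA+HDM Retnla. How far muscle transcripts inside adipocyte outlines account for the differences by distance from muscle was not tested.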

How the data were processed

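Xenium In Situ measured RNA molecules in 2 sections of mouse dorsal skin, 1 per treatment. The authors deposited 1 row per decoded transcript with its gene, position, cell identifier and a quality score, and the corners of each cell outline, per the file headers; positions were taken as µm. Which software decoded and segmented the images is not stated in the labels or headers used here. Scores reached 40 and were not filtered on deposit, so rows scoring 20 or more were counted by cell here, leaving out control features and rows without a cell. Counts of cells were summed per section and strip and divided by their total (CPM). Strips were groups of cells linked within 100 µm, and depth was measured from the outermost epithelial cells. Other cell classes were called by marker share (8% for epithelial cells, 10% for fibroblasts, blood endothelial cells and macrophages, 30% for muscle). Ratios have exact conditional binomial intervals and shares Clopper-Pearson intervals. No count model was fitted, since each treatment has 1 sample. The arithmetic was tested on simulated data.

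Members, lists and alternatives were chosen with earlier results of these data known. Named were the genes of the rule, the fat cell list, the 12 genes highest in adipocytes relative to other cells, the 10 highest and 10 lowest ratios, up to 2 highest and 2 lowest of each list, and the 10 genes closest to Car3. Values of 2 genes that this rule names are not reported here. RefSeq lists 378 of the 379 gene names as symbols and 1 as a synonym. Alternatives changed the quality score, the cell and gene minimums, each threshold of the rule, the denominator, thinning and the strips included. Cells of neighbouring types were not separated from adipocytes beyond the rule, and doublets were not called. Python 3.11.15, numpy 2.4.6, pandas 2.3.3, scipy 1.17.1 and matplotlib 3.10.9 were used.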

Additional observations from a re-analysis of the deposited data

How the results depend on the processing

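The lower adipocyte share in SspA+HDM held under every setting tried, and the higher number per mm held under all but one. The ratios of share and of number per mm were 0.711 and 1.86 with Car3 at 5% or more, 0.381 and 0.998 with 20% or more, and 0.574 and 1.5 when cells were chosen by Retn at 2% (added after seeing the data). They were 0.692 and 1.92 without mock strip 2, 0.588 and 1.46 without mock strip 1, 0.531 and 1.28 without SspA+HDM strip 2, and 0.719 and 2.03 without SspA+HDM strip 1. The cause was not tested.

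The counts of genes past 2-fold moved with the genes and cells compared. Against 29 higher and 9 lower of 166, they were 18 higher and 5 lower of 110 with Car3 at 20% or more, 15 higher of 114 with nuclear transcripts alone, 14 lower of 197 with genes of at least 50 transcripts, 70 higher and 27 lower of 365 with genes of at least 1, and 11 higher of 91 without genes marked by another class. Among adipocytes without macrophage transcripts they were 17 and 5 of 117, and without Pi16, Igfbp6 and Pcolce2 transcripts 19 and 2 of 101, both chosen after seeing the data. In each setting at least 20 of the 25 named genes past 2-fold remained past it, and none changed direction. The median log2 ratio of Cd36 and Mgll stayed below 0 throughout.

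The median distance to an epithelial cell was 33.7 µm in mock and 39.9 µm in SspA+HDM with the class threshold at 0.5 times its value and 42.6 and 45.5 µm at 2 times, and 39.1 or 43.96 µm with 1 strip of SspA+HDM left out. The share near muscle was 64.3% and 34.5% at 0.5 times and 11.1% and 2.73% at 2 times, 28.6% and 14.2% within 20 µm, 94.8% and 57.9% within 50 µm, 63.4% without mock strip 2, and 25.5% in SspA+HDM with Car3 at 20% or more.

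No paired analysis was possible because each treatment has 1 sample. Precision is limited by that number, by outlines that can hold neighbouring cells' transcripts, and by the low mock counts of Hpx, Cxcr2 and Acan.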
